A study of Canis lupus familiaris with 26 samples.

Results

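CD209 and IL16 are immune genes that were measured by RNAseq in stroma of canine simple mammary adenoma, a benign tumour of the mammary epithelium. They are 2 of the 18466 genes in the count table, listed as ENSCAFG00000018314 (CD209) and ENSCAFG00000013833 (IL16). Both were found by symbol, and both were picked because an earlier fit of the same samples had called them lower in tumour stroma. Their difference between the stroma types is therefore given as a description, without a test.

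CD209, also called DC-SIGN, is a C-type lectin on the surface of dendritic cells and of some tissue macrophages. It binds mannose- and fucose-rich glycans on microbes and the adhesion molecules ICAM2 and ICAM3 on other cells. IL16 is made as a long precursor that is cleaved inside the cell, and the released C-terminal part attracts CD4-bearing cells such as T cells, monocytes and eosinophils. In connective tissue, resident macrophages and dendritic cells take up debris and antigens, and lymphocytes are present in smaller and more variable numbers.

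The study compared adenoma-associated stroma (AAS) with normal stroma next to unaltered mammary gland, both cut by laser-capture microdissection from the same formalin-fixed and paraffin-embedded (FFPE) slides of 13 female dogs whose tumours had been removed by surgery. The labels name no treatment, and give the tumour stroma as cancer-associated. Pair 14 was left out because its normal stroma sample had very few counts, which leaves 12 pairs. These dogs were 6 to 13 years old, each of another breed, and their samples had an age of 4 to 29 months. Each sample is a mixture of all cells in the captured stroma.

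The 24 samples held between 419770 and 1614120 estimated counts. Values are given as normalized CPM, counts of a gene scaled to a common library total after TMM normalization, with an exact 95% binomial (Clopper-Pearson) interval where a single sample is described. Such intervals cover counting error only. In 1 AAS sample, that of pair 7, a single gene took 84.9% of all counts, so that 3 counts of any other gene already amount to 26.7 normalized CPM there. Among the other 23 samples the largest share of 1 gene was at most 45.3%, in the normal stroma of pair 4.

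CD209 was present in every normal stroma sample and scarce in most AAS samples. In the 12 normal stroma samples it ran from 46.1 to 639 normalized CPM with a median of 223, from 29 to 856 counts. In the 12 AAS samples CD209 ran from 0 to 87.3 with a median of 9.29, from 0 to 175 counts. The highest AAS samples were those of pair 12 (87.3, interval 69.5 to 108) and pair 9 (85.1, interval 73.0 to 98.7). These were the only ones above the lowest normal stroma sample, that of pair 7 (46.1, interval 30.9 to 66.2), so that 10 of 12 AAS samples lay below all normal stroma samples. The groups thus overlapped, and of all tested genes 0.176% had every AAS sample below every normal stroma sample.

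AAS was lower than its own normal stroma for CD209 in 12 of 12 pairs. Of the 4544 genes that passed the filter on low counts, 0.99% were lower in all 12 pairs. The AAS sample held a median of 5.88% of the level of its partner, between 0% in pairs 3 and 10 and 23.9% in pair 9. The counting intervals of the partners were apart in 11 of 12 pairs and overlapped in pair 7, whose AAS sample held 1 count. The log2 fold change was -3.70 (standard error 0.57), rank 5 by size among the 54 genes called lower, where IL16 had rank 16. To be called, a gene needed an adjusted p below 0.05 and a log2 fold change above 1 or below -1. By this rule 1.19% of all tested genes were called lower, CD209 and IL16 among them, which the way they were picked guarantees.

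In pair 3 the contrast was widest. Its normal stroma held 520 counts of CD209 (569 normalized CPM) and its AAS held 0 of 1140012 counts, a total at which 3 counts would be 2.29 normalized CPM. Pair 10 held 144 and 0 counts, but 3 counts in that AAS sample already amount to 10.0 normalized CPM. In bulk samples of this kind, fewer CD209-bearing cells and less CD209 RNA per cell cannot be told apart.

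IL16 was counted at a much lower depth, with a mean of 21.5 counts per sample against 197 for CD209. Its normal stroma samples ran from 8.83 to 82.9 normalized CPM with a median of 25.5, from 6 to 111 counts. Its AAS samples ran from 0 to 10.3 with a median of 4.75, from 0 to 17 counts. The AAS samples of pairs 5, 7, 10 and 15 were at 0 counts, and 9 of 12 AAS samples lay below the lowest normal stroma sample. In the AAS samples of pairs 7 and 10, 3 counts amount to 26.7 and 10.0 normalized CPM, above that lowest value of 8.83. Their 0 counts therefore cannot be placed below it. The groups overlapped, and 0.176% of all tested genes had every AAS sample below every normal stroma sample.

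For IL16, AAS was lower in 11 of 12 pairs, a pattern met or exceeded by 2.95% of tested genes. The exception was pair 12, with 8.83 normalized CPM (11 counts) in normal stroma against 9.47 (9 counts) in its partner, which differed by less than counting error. The counting intervals of the partners were apart in 9 of 12 pairs and overlapped in pairs 7, 12 and 15. In pair 7 the interval of the 0 counts in the AAS sample reached up to 32.9 normalized CPM, above the 9.53 of its partner. A difference was thus not detectable at this depth. The log2 fold change was -2.55 (standard error 0.56), and the AAS sample held a median of 9.96% of the level of its partner.

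**Figure D1:**
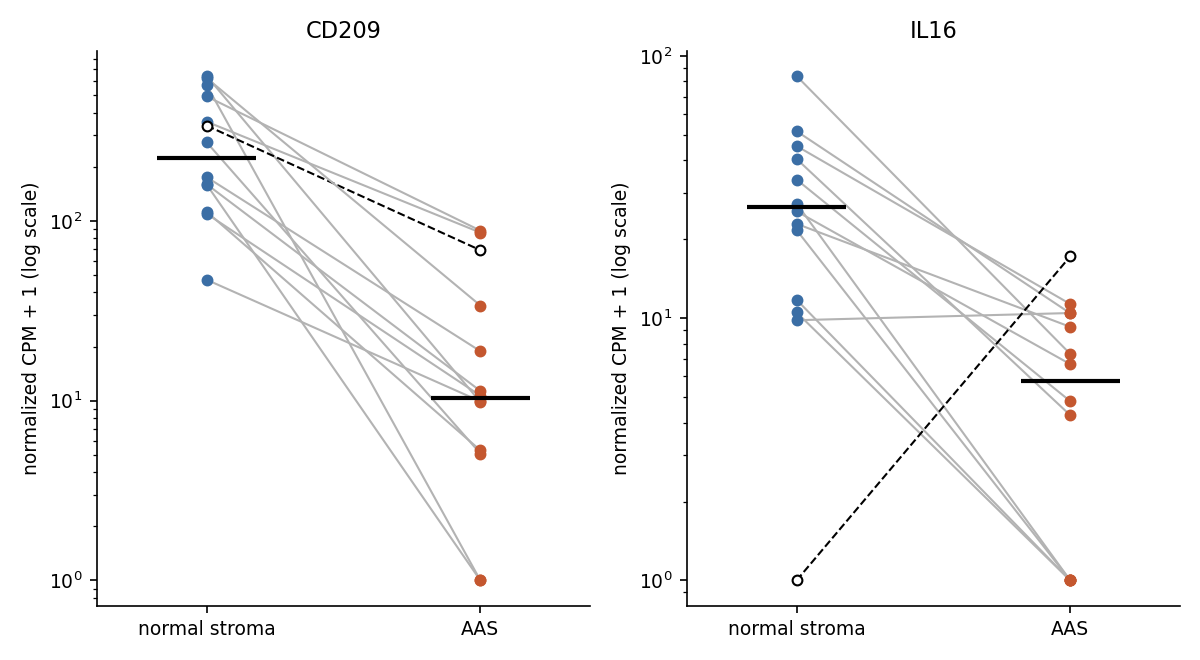
Normalized CPM plus 1 on a log scale (y) of CD209 (left) and IL16 (right) in normal stroma and AAS (x), with a line for each pair, black bars for the medians of 12 samples and open circles with a dashed line for pair 14, which was left out. CD209 was lower in AAS along each of the 12 solid lines, with medians of 223 and 9.29, and IL16 along 11 of 12.

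Pair 14 had no part in the choice of the genes. Its normal stroma sample held 83727 counts in all, so that 3 counts are 21.1 normalized CPM. CD209 had 338 normalized CPM there (48 counts, interval 249 to 448) and 67.7 in the AAS partner (71 counts, interval 52.9 to 85.4), or 20.0% of the normal stroma level. Both values lay within the range of their group, and their intervals were apart. IL16 had 0 counts in the normal stroma sample (interval 0 to 26.0) and 17 counts in AAS (16.2 normalized CPM, interval 9.45 to 26.0). These intervals overlapped, so that pair 14 gives no direction for IL16.

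To see whether macrophage genes differed as CD209 did, the genes of a macrophage list were read in the same samples. Of 25 listed genes, 8 had an identifier and 7 passed the filter. F13A1, the A subunit of coagulation factor XIII and a marker of resident connective tissue macrophages, fell in AAS. It was between 36.5 and 257 normalized CPM in normal stroma (median 89.8) and between 0 and 44.6 in AAS (median 19.8), with the AAS sample below its partner in 11 of 12 pairs. The fitted difference was -2.42 on the log2 scale, with a standard error of 0.46 (edgeR quasi-likelihood test, adjusted p = 0.00115 after Benjamini-Hochberg). It was the 1 macrophage gene called, against 1.8% of all tested genes in either direction.

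The scavenger receptor CD163, the mannose receptor MRC1 and the receptor of the macrophage growth factor, CSF1R, were not called. CD163 had a median of 43.6 normalized CPM in normal stroma against 22.6 in AAS and a log2 difference of -0.77 ± 0.48 (standard error). MRC1 had medians of 191 and 122, a log2 difference of -0.49 ± 0.23, and lower values in AAS in 8 of 12 pairs. CSF1R had medians of 26.5 and 10.5 and a log2 difference of -0.84 ± 0.53. The adjusted p-values of the 3 genes lay between 0.429 and 0.666 by the same test. Of the 12 AAS samples, 0 lay below the lowest normal stroma sample for MRC1, 2 for CD163 and 6 for CSF1R. With the pair as a block the log2 difference of CSF1R was -1.33 (edgeR adjusted p = 0.397).

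AIF1, which encodes the macrophage protein IBA1, and MS4A7, a membrane protein of mature macrophages, had higher medians in AAS. AIF1 had 337 normalized CPM in normal stroma against 360 in AAS, and MS4A7 had 186 and 266, the latter lower in AAS in 1 of 12 pairs. Neither was called (log2 fold changes 0.27 and 0.48, edgeR adjusted p = 0.824 and 0.395). GPNMB, a glycoprotein of phagocytic cells, had medians of 82.3 and 23.3 and was lower in 10 of 12 pairs without being called (log2 fold change -1.10, edgeR adjusted p = 0.444). With the pair as a block its log2 fold change was -1.74 (edgeR adjusted p = 0.146), and DESeq2 with the block called it lower (-1.75, DESeq2 adjusted p = 0.00887). LYZ, the gene of lysozyme, did not pass the filter.

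Summed over the 8 macrophage genes with an identifier, the level was 505 to 1285 normalized CPM in normal stroma (median 1017) and 462 to 1542 in AAS (median 895). In 6 of 12 pairs the AAS sample had the lower sum. The median log2 fold change of the 7 tested genes was -0.77, against 0.01 over all tested genes. CD209 was also set against that sum in the same sample. It amounted to between 4.00% and 123% in normal stroma (median 20.3%) and between 0% and 8.27% in AAS (median 1.14%). The ratio was lower in AAS in 12 of 12 pairs, as was CD209 itself. Because CD209 was picked for its fall, the ratio is a description and no test of a change beyond macrophage content.

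**Figure D2:**
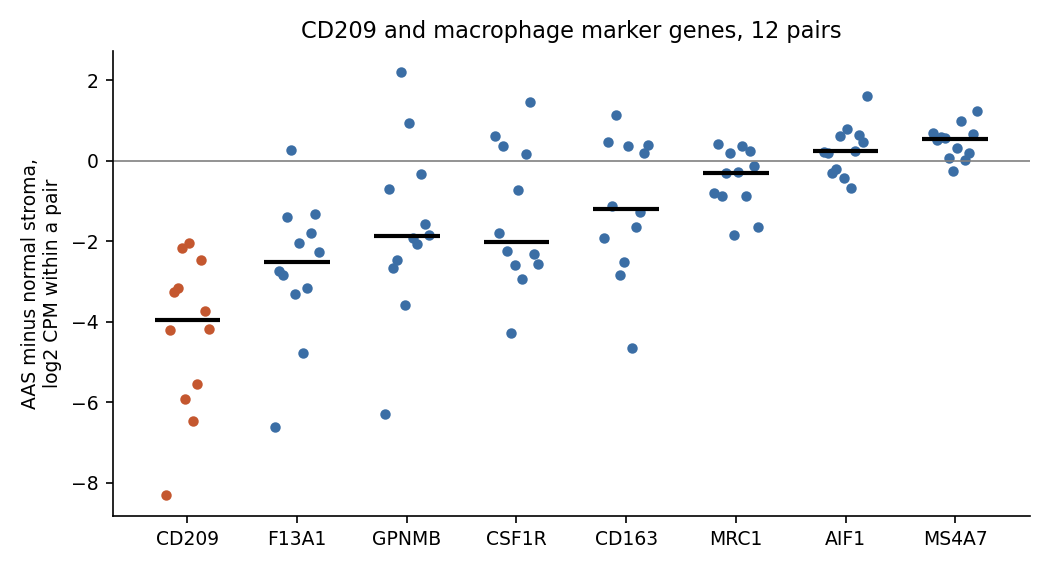
Difference in log2 CPM between AAS and normal stroma of the same pair (y) for CD209 and 7 macrophage genes (x), with 1 point for each of 12 pairs and a black bar for the median. All points of CD209 lie below 0, with a median of -3.95, while those of MS4A7 have a median of 0.55.

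The other immune cell lists could be read only in part, because few of their genes had an identifier. Over all immune lists, 44 of 250 listed genes had one and 27 were tested. F13A1 was the 1 gene called among these (3.70%), with 0 higher, and 8 reached an unadjusted p below 0.05, 7 of them lower in AAS. The same threshold was reached by 10.5% of all tested genes, and by 6.25% in the lower direction. The median log2 fold change of the 27 genes was -0.30, and 17 were below 0. DESeq2, which called 2.95% of all tested genes, also called 1 of these. The symbols come from tables that favour genes which changed, and CD209 and IL16 are not in these counts. The summed level of the 4 pan-leukocyte genes with an identifier went the other way, with medians of 49.0 normalized CPM for normal stroma against 89.1 for AAS, and the AAS sample had the lower sum in 2 of 12 pairs. By the medians, most of that sum was the phosphatase gene PTPN6 (40.6 and 65.5), so that it is mainly a reading of 1 gene. PTPN6 was the 1 tested gene of the list, with a log2 fold change of 0.77 (edgeR adjusted p = 0.620). CD37, IKZF1 and RAC2 did not pass the filter and had medians of at most 9.36 normalized CPM in either stroma type.

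The dendritic cell list held 1 tested gene, IRF4, a transcription factor of dendritic and plasma cells, with medians of 116 and 130 normalized CPM (log2 fold change 0.41, edgeR adjusted p = 0.599). Mast cell and granulocyte genes with an identifier, KIT and CSF3R, did not pass the filter. Of the 20 listed T cell genes, 2 had an identifier, too few to read the level of T cells. ZAP70, a kinase of T cell receptor signalling, was at 0 counts in 11 of 12 normal stroma samples and 8 of 12 AAS samples. TCF7, a transcription factor of T cells, had medians of 19.2 and 21.4 normalized CPM (log2 fold change 0.49, edgeR adjusted p = 0.882). The B cell gene PAX5 had medians of 61.5 and 62.2 normalized CPM, and the plasma cell genes TNFRSF17 and PRDM1 had 83.2 and 129 and 25.2 and 26.1. They were higher in AAS in 7, 7 and 8 of 12 pairs, and none was called (edgeR adjusted p between 0.822 and 0.966). The T cell genes CD3E and CD4 and the leukocyte gene PTPRC are not analysed here, so that the cell type that carries IL16 in these samples was not determined.

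The known partners of IL16 were represented by CD9, a tetraspanin described as an alternative IL16 receptor, and STAT6, a transcription factor. CD9 had a median of 15.5 normalized CPM in normal stroma against 4.96 in AAS, with lower AAS values in 10 of 12 pairs (log2 fold change -1.30, edgeR adjusted p = 0.419). STAT6 had medians of 32.6 and 18.1 (log2 fold change -0.40, edgeR adjusted p = 0.914). Of the other interleukins, IL18, a cytokine of the IL1 family, had medians of 563 and 488 normalized CPM, and IL17B had 182 and 132. Both fell short of the threshold (edgeR adjusted p = 0.604 and 0.475), as did IL1RN, the antagonist of the IL1 receptor (log2 fold change 0.71, edgeR adjusted p = 0.752).

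Other C-type lectin receptors gave 0 calls among 4 tested genes, with all 4 log2 fold changes below 0 and 2 at an unadjusted p below 0.05 by edgeR's test. DESeq2 gave no call among them either. CLEC4G, a lectin related to CD209, had a median of 21.5 normalized CPM in normal stroma against 8.35 in AAS, with lower AAS values in 10 of 12 pairs (log2 fold change -1.27, edgeR adjusted p = 0.406). FCER2, the low-affinity IgE receptor, had medians of 23.4 and 12.0 (log2 fold change -1.05, edgeR adjusted p = 0.650). CD302 had medians of 24.8 and 10.0 (log2 fold change -0.69, edgeR adjusted p = 0.821, and -1.07 and 0.746 with the block). The signalling genes around CD209 were not called by edgeR, with or without the block. RELA, a subunit of NF-κB, had medians of 20.9 and 9.12 (log2 fold change -1.26, edgeR adjusted p = 0.405). DESeq2 with the block called RELA lower (-1.57, DESeq2 adjusted p = 0.0495). The kinase gene SYK had medians of 43.4 and 37.0. NFKB1, another subunit of NF-κB, had 240 and 283, with higher AAS values in 10 of 12 pairs, and PTPN6, also on this list, was higher in 9 of 12. The summed level of the 6 signalling genes with an identifier was lower in AAS in 2 of 12 pairs (medians 438 and 513).

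**Figure D3:**
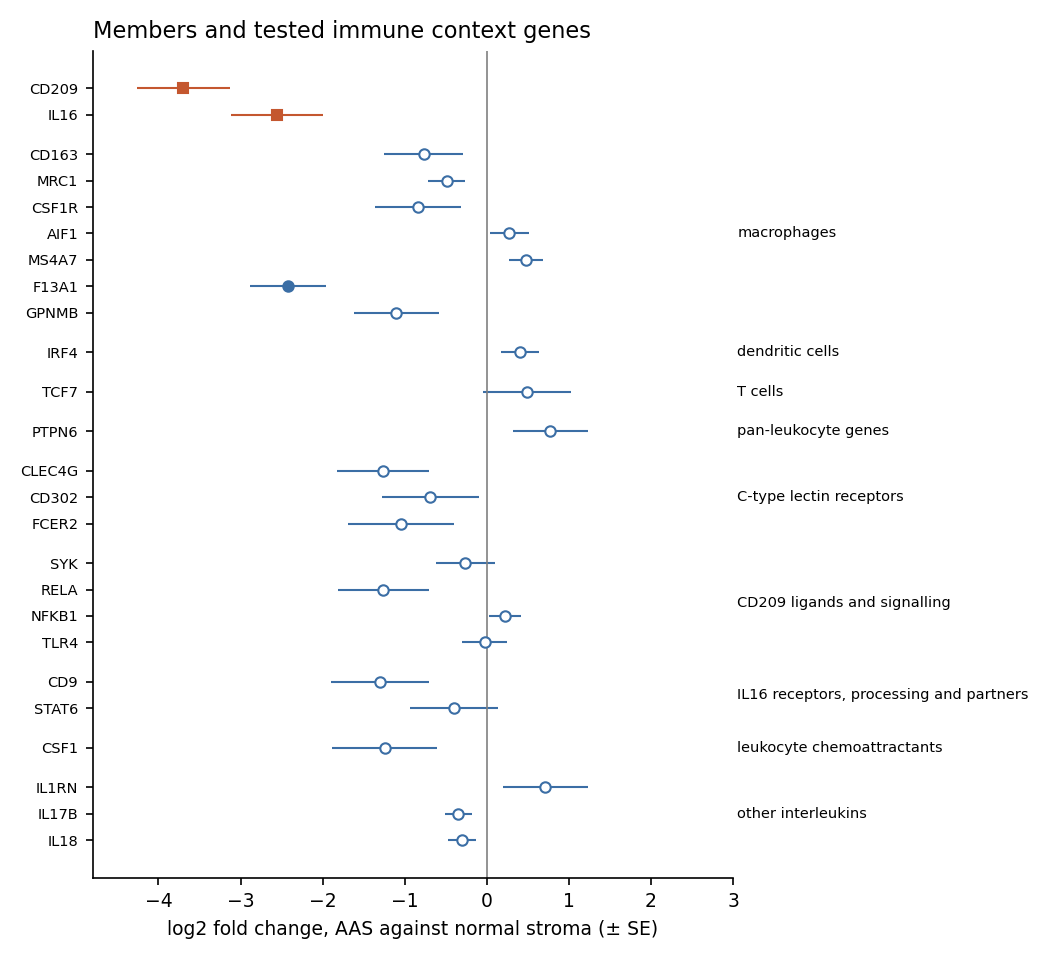
Log2 fold change of AAS against normal stroma with its standard error (x) for CD209 and IL16 (squares) and tested genes of the immune lists other than B and plasma cells (circles), grouped by list (y); the filled circle marks the 1 gene called. CD209 at -3.70 and IL16 at -2.55 lie below all other genes shown, and F13A1 at -2.42 is the nearest.

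Most fibroblast genes also had lower values in AAS. Of 14 tested fibroblast genes, 13 had a log2 fold change below 0 and 3 fell in AAS by the call rule, the proteoglycan gene DCN (log2 fold change -1.96, edgeR adjusted p = 0.00994), the matrix gene FBLN1 (-1.71, edgeR adjusted p = 0.00508) and PI16, a marker of resting fibroblasts (-2.36, edgeR adjusted p = 0.00152). Over all tested genes 1.19% were called lower by this fit. The symbols of this list also come from tables that favour genes which changed. COL1A2, a chain of type I collagen, had a log2 fold change of -1.36 (edgeR adjusted p = 0.0531), just outside the threshold. It was called with the pair as a block, a fit that called 2.53% of all tested genes and 1.89% in the lower direction. It was also called by DESeq2, with other filters on low counts, with all 13 pairs, and when pair 6, 7, 10, 11 or 13 was left out. The summed level of the list was 1883 to 20744 normalized CPM in normal stroma (median 5636) and 611 to 7114 in AAS (median 2747). The median log2 fold change of the list was -0.92. Its part in the difference of CD209 and IL16 was not tested. The summed level of 3 lymphatic endothelial genes was lower in AAS in 10 of 12 pairs (medians 61.3 and 19.8). The 1 tested gene among them, FLT4, had a log2 fold change of -0.16 (edgeR adjusted p = 0.978). PROX1 and MMRN1 did not pass the filter. The median of MMRN1 was 17.7 normalized CPM for normal stroma and 0.486 for AAS, with 1 of 12 pairs going the other way. It rests on 269 counts over all normal stroma samples and 30 over all AAS samples. When genes needed a mean count of 5, MMRN1 was called lower (log2 fold change -3.10, edgeR adjusted p = 0.0183). PROX1 was not called at that setting (-1.04, edgeR adjusted p = 0.749). The summed level of 4 epithelial genes was lower in AAS in 4 of 12 pairs (medians 161 and 219).

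Variation within a stroma type was not used to pick the genes, and could be tested. No relation between CD209 and IL16 was detected. Across the 12 normal stroma samples Pearson's r was 0.13 (two-sided permutation test with 100000 resamples, p = 0.686) and Spearman's rho was 0.13 (permutation p = 0.684). Without the 2 samples farthest from the median of CD209, r was -0.56. The adjusted p of r over 10 relations of this family was 0.686. In AAS, IL16 had 0 counts in 4 of 12 samples and at most 17 in the others, too few to read its variation there, so that its relations within AAS are not given. CD209 had 0 counts in 2 of 12 AAS samples and 1 count in that of pair 7, which also limits its relations there.

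Against the level of the 7 tested macrophage genes (mean of scaled log2 CPM), CD209 gave an r of 0.24 in normal stroma (permutation p = 0.444, rho 0.43 with permutation p = 0.163) and of 0.49 in AAS (permutation p = 0.112, rho 0.56 with permutation p = 0.0614). Without the 2 samples farthest from the median these were 0.69 and 0.86. Against the level of the 14 fibroblast genes in normal stroma, CD209 gave an r of 0.71 (permutation p = 0.0107, adjusted p = 0.107) and a rho of 0.77 (permutation p = 0.00499, adjusted p = 0.0499), and r was 0.67 without 2 samples. IL16 with both marker levels in normal stroma and CD209 with fibroblast genes in AAS gave r between 0.30 and 0.40 and adjusted p-values between 0.391 and 0.431 by permutation test (rho 0.24 to 0.46, and r from -0.02 to 0.60 without 2 samples). None of the 10 relations passed for r. Without pair 10 that of CD209 with fibroblast genes did (r = 0.80, permutation test, adjusted p = 0.0325).

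The level of CD209 in normal stroma was lower in older samples, by the age of the sample that the labels give. Against the age of the sample in months, r was -0.88 (two-sided permutation test, p = 0.00019, adjusted p = 0.00228 over 12 relations) and rho was -0.87 (permutation p = 0.00051, adjusted p = 0.00612). Without the 2 samples farthest from the median age, r was -0.76. The 4 normal stroma samples of 20 months or more held between 46.1 and 174 normalized CPM, and the 8 samples of 15 months or less held between 158 and 639. Of the 4544 tested genes, 0.088% had an r as low or lower in these samples, while the median r was -0.03.

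The age of the sample moved with other features of the normal stroma samples. In the 4 oldest samples between 3341 and 5508 genes reached 10 counts, and 13.6% to 45.3% of counts went to the top gene. In the 8 younger samples these values were 4137 to 7470 genes and 10.5% to 22.9%. The part of these features in the relation was not tested, and the dog and the age of its sample cannot be told apart. RNA quality, which the study gives for each case, was not analysed here. Leaving out pairs 4 and 7, whose normal stroma had the largest shares in 1 gene, gave an r of -0.78 (permutation test, adjusted p = 0.0794), and leaving out pairs 7 and 10 gave -0.82 (permutation test, adjusted p = 0.0672), both chosen after the data were seen.

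The macrophage genes did not share 1 direction with the age of the sample. In normal stroma CD163 gave an r of -0.71 (permutation p = 0.0113, adjusted p = 0.0790; rho -0.57, permutation p = 0.0549) and F13A1 an r of -0.59 (permutation p = 0.0466, adjusted p = 0.109; rho -0.45, permutation p = 0.146). AIF1 gave 0.64 (permutation p = 0.0245, adjusted p = 0.0856; rho 0.64, permutation p = 0.0279). Without the 2 samples farthest from the median age these were -0.63, -0.30 and 0.45. These 3 are the ones of 7 macrophage genes with an unadjusted p below 0.05, they were tested after the relation of CD209 had been seen, and none passed the adjustment.

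In AAS the relation of CD209 with the age of the sample gave an r of -0.31 (permutation p = 0.329, rho -0.32 with permutation p = 0.311, -0.42 without 2 samples). Whether this relation differed from that in normal stroma was not tested. CD209 had 0 counts in 2 of these AAS samples and 1 count in that of pair 7. A weak r there does not show that a relation is absent. For IL16 in normal stroma r was -0.18 (permutation test, adjusted p = 0.717; rho -0.12; 0.23 without 2 samples), with 35.5% of tested genes as low or lower.

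**Figure D4:**
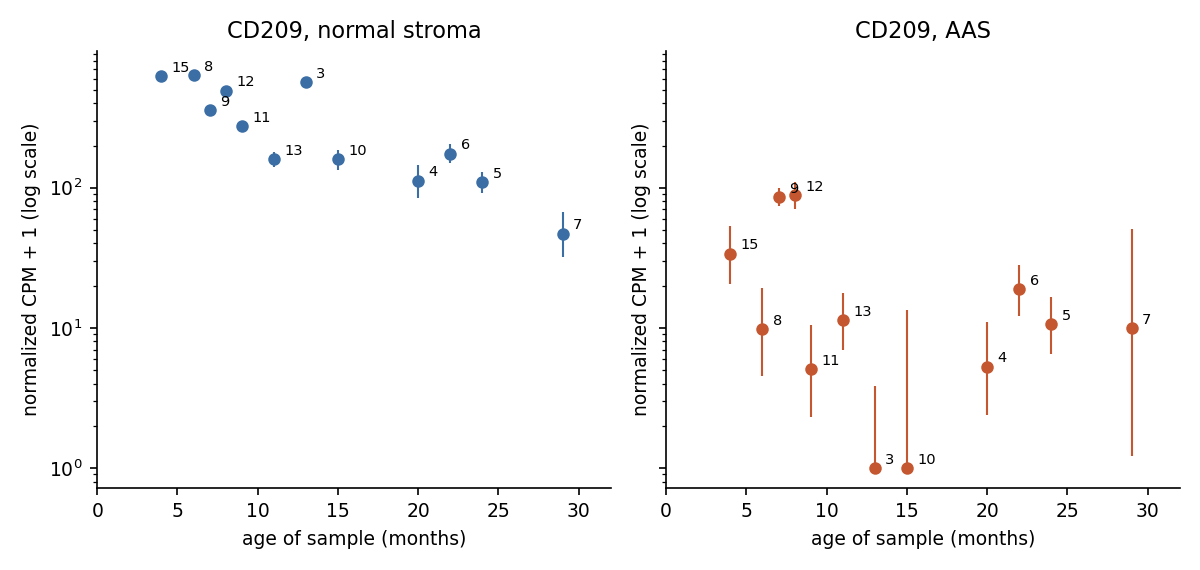
Normalized CPM plus 1 of CD209 on a log scale (y) against the age of the sample in months (x) in 12 normal stroma samples (left) and 12 AAS samples (right), with exact 95% counting intervals and pair numbers beside the points. Normal stroma runs from 622 at 4 months (pair 15) to 46.1 at 29 months (pair 7).

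The age of the dog and the log2 total count showed no relation that passed with CD209 in either stroma type or with IL16 in normal stroma. For the age of the dog the 3 values of r lay between -0.35 and -0.10, and for the total count between -0.16 and 0.49, with adjusted p-values of 0.421 or more by permutation test. Spearman's rho lay between -0.32 and 0.43 for these 6 relations, and r without 2 samples between -0.26 and 0.41. The highest was the r of IL16 with the total count. Across pairs, a relation chosen after the data were seen, CD209 in AAS gave an r of 0.24 with CD209 in the normal stroma of the same dog (permutation p = 0.454; rho 0.19, permutation p = 0.556; 0.32 without 2 samples).

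The genes most like CD209 were sought among the 1856 tested genes with a symbol, by Pearson's r of log2 CPM over 24 samples after the mean of each stroma type was taken off. These r are descriptions, since the points share libraries and depth. SETD7, a lysine methyltransferase, came first (0.75), and F13A1 second (0.71), with 0.64 in normal stroma and 0.74 in AAS. B2M, the light chain of MHC class I, gave 0.63, and 0.89 in normal stroma. Unlike CD209, B2M had the higher value in the AAS sample of 11 of 12 pairs, with a log2 fold change of 0.96 (edgeR adjusted p = 0.264). With the pair as a block B2M was called higher (log2 fold change 1.18, edgeR adjusted p = 0.00790). CAB39, SS18L1, the laminin gene LAMA2 and the adhesion gene SDK1 were also among the 8 most like CD209, with r between 0.60 and 0.63. SDK1 was one of 2 called genes among the 8 (log2 fold change -1.91, edgeR adjusted p = 0.0294), and its r with CD209 was -0.24 in normal stroma and 0.84 in AAS. It lost its call when pair 4, 5, 6, 8, 11 or 13 was left out, with adjusted p-values between 0.0710 and 0.0974.

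The 8 genes most like IL16 were ANK2, an ankyrin of the membrane skeleton (0.78), ZC3HAV1, an antiviral zinc finger protein (0.76), INO80D, SELENON, PRDM4, KDM6A, LARP6 and DENND2A, with r down to 0.70. None was on the immune lists, and none was called by edgeR's test without the block in the 12 pairs after the filter on low counts. Without that filter ANK2 was called lower (log2 fold change -1.53, edgeR adjusted p = 0.0250). DESeq2 called ANK2 lower (log2 fold change -1.51, DESeq2 adjusted p = 0.0230). Leaving out pair 8 called ANK2 lower (log2 fold change -1.82, edgeR adjusted p = 0.0353), leaving out pair 9 did so for LARP6 (-1.95, edgeR adjusted p = 0.0188), and the block did so for ANK2 (-1.88, edgeR adjusted p = 0.0274). In normal stroma alone the r of the 8 genes lay between 0.45 and 0.77. Their mean counts lay between 15.1 and 56.3, and the median r of IL16 with all other tested genes was 0.14, against 0.01 for CD209. CD209 itself ranked 1653 of 4543 genes by likeness to IL16, with an r of 0.24, and IL16 ranked 757 by likeness to CD209. These ranks and the choice of the 8 genes draw in part on the AAS samples. IL16 had too few counts there to read its variation.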

How the data were processed

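RNAseq of laser-captured stroma from FFPE tissue was analysed in 26 samples, 1 AAS and 1 normal stroma sample from each of 13 dogs. Per the methods and labels, the authors quantified reads with kallisto 0.44.0 on Ensembl transcripts (CanFam3.1), and tximport gave the sums per gene. They deposited estimated counts for 18466 genes, not normalized and stored as whole numbers, so that rounding changed 0 values. No 2 samples were identical. The libraries were stranded. Whether strand was used in counting is not given in the sources used here, and neither gene overlaps a neighbour in the RefSeq table of the assembly UU_Cfam_GSD_1.0, which was used for neighbours only.

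Groups and pair numbers came from sample titles. For 12 pairs, filterByExpr removed low genes, TMM set the scale, and genes were tested by edgeR 4.0.16 in R 4.3.3 (quasi-likelihood test, Benjamini-Hochberg adjustment over 4544 genes). A call needs an adjusted p below 0.05 and a log2 fold change beyond 1. The main fit has no pair term, since the methods name none. The 2 samples of a pair come from 1 dog, as the labels' shared case data show, and deviated from their group means with a mean correlation of 0.125, against -0.006 for different pairs. Log2 CPM carry a prior count of 2. Correlations used permutation tests with 100000 resamples. Both scripts were tested on simulated data.

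Symbols for 3302 identifiers came from the study's supplementary lists, which were read only in part. The authors' fold changes and p-values there were not used. The genes, lists, tests and the rule for named genes were chosen with earlier results of these data known. Named genes are those of the lists that were called with or without the block, a few defining markers, and the 8 genes most like each of CD209 and IL16. Further list genes were named after their values were seen. Alternatives were DESeq2 1.42.0, the replicate block, RLE normalization, other filters, all 13 pairs, other library sizes, a prior count of 0.5 and leaving out pairs. Settings without 2 pairs were chosen after the data were seen. CD209 and IL16 have no p-value for AAS against normal stroma. Some genes of the lists are not reported here.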

Additional observations from a re-analysis of the deposited data

Results flagged for a closer look

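IL16 in the AAS sample of pair 14, which the comparisons leave out, had 16.2 normalized CPM (17 counts), above the highest of the 12 AAS samples used (10.3). Its normal stroma partner held 0 counts, at a depth where 3 counts are 21.1 normalized CPM.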

How the results depend on the processing

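Over 21 alternatives the log2 fold change lay between -4.41 and -3.45 for CD209 and between -2.86 and -2.25 for IL16, each moving by less than the SD between pairs. With the pair number as a replicate block it was -4.29 and -2.86, and with all 13 pairs -3.51 and -2.25. Without 1 pair it lay between -4.16 and -3.45 and between -2.75 and -2.36. The 82 genes called became 134 with DESeq2, 227 with DESeq2 and the replicate block, 1690 without a filter on low counts and 153 when genes needed a mean count of 5. The block alone gave 115, and leaving out 1 pair gave 71 to 93. F13A1 was called under all 21 alternatives (adjusted p between 8.00e-08 and 0.00635). DESeq2 with the block called 4 immune genes, adding GPNMB, RELA and CSF1, all lower in AAS, and among the genes most like CD209 and IL16 it added B2M, SS18L1, ANK2, LARP6 and DENND2A. The sign turned for SETD7 without pair 15 (-0.32, and between -0.32 and 0.72 without any 1 pair) and for KDM6A with the block (-0.88), DESeq2 with the block (-0.82) and the mean count filter (-0.026), neither being called. The block changed no other call of the named genes than those given in the report for B2M and ANK2 and that of COL1A2 (log2 fold change -1.44, edgeR adjusted p = 0.00204), which other settings also called. Of the 10 relations of CD209 and IL16 with each other or with marker levels, 0 passed for r, and between 0 and 1 without 1 pair. For rho, that of CD209 with fibroblast genes in normal stroma passed (permutation test, adjusted p = 0.0499). Of the 12 relations with age and depth 1 passed, 2 with all 13 pairs, where IL16 and the total count in normal stroma gave an r of 0.83 that rests on the shallow sample of pair 14, and 0 without pairs 7 and 10 or without pairs 4 and 7. The r of CD209 with the age of the sample lay between -0.92 and -0.81 without 1 pair. The cause of these shifts was not tested. IL16 rests on 74 counts over all AAS samples, which limits what single pairs can show.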
